A study of Mus musculus with 14 samples.

Results

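Voltage-gated calcium channels open when a neuron depolarises and let calcium into the cell. The set described here holds 10 genes of their subunits, chosen by symbol: Cacna1a, Cacna1b, Cacna1c, Cacna1e and Cacna1h for the pore, Cacna2d1 and Cacna2d2 for the α2δ subunits, and Cacnb1, Cacnb3 and Cacnb4 for the β subunits. All 10 have a row in both deposited tables of RNA sequencing counts, among 56691 genes in the 5xFAD table and 20833 in the p75 table. RNA came from mouse dorsal root ganglia, where sensory neurons have their somata, and the labels give the cell type as sensory neurons. The 4 libraries of the 5xFAD group came from 5xFAD mutants, a transgenic line whose transgenes are driven by a Thy1 promoter, and were set against 4 wild-type (WT) libraries. The 3 p75 knockout libraries, whose genotype is written as P75f/f-knockout, were set against 3 floxed (P75f/f) libraries, so both groups of that table carry the floxed p75 allele. The table names the knockout columns with the term Adv, which the labels do not explain, and neither a Cre driver nor ages are given. Whether each replicate is its own animal is not stated, so p-values measure only the spread between these libraries, which may be technical.

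The pore subunit decides the current type. Cacna1a forms P/Q-type and Cacna1b N-type channels, the main routes of calcium entry at transmitter release sites, while Cacna1c forms L-type channels, which also carry the calcium current of smooth muscle and heart. Cacna1e forms R-type channels, and Cacna1h forms T-type channels, which open near the resting potential and set the excitability of sensory neurons. The α2δ proteins bring pores to the surface and to terminals, and α2δ-1, encoded by Cacna2d1, binds the pain drugs gabapentin and pregabalin and rises in sensory neurons after nerve injury. The β proteins bind the inner face of high-voltage pores, among them all the pores listed here other than the T-type one.

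Total counts ranged from 13907070 to 19837836 per library in the 5xFAD table and from 4731119 to 6052690 in the p75 table. Ngfr, the gene of p75, stood at 22.5, 24.1 and 35.9 CPM (counts per 1000000 counts of the library) in the knockout libraries, against 135, 130 and 87.7 CPM in the floxed ones. All 17 pan-neuronal markers chosen were tested in each table, but Pvalb, of proprioceptors, and Th, of C-fibre touch neurons, had no count in any p75 library and at most 0.144 and 0.575 CPM in the 5xFAD table. Markers of Schwann cells, fibroblasts and vessels were present in both tables beside the neuronal ones. Libraries split by replicate number in both genotypes of each table. With genotype in the model, 20.1% of genes differed between replicates 3 and 4 and replicates 1 and 2 of the 5xFAD table, and 30.5% between replicate 3 and the other replicates of the p75 table (edgeR, adjusted p under 0.05).

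In 5xFAD ganglia, Cacna1b of the N-type pore and Cacna2d1 rose, and the other 8 genes did not pass the test. Called genes are those with a Benjamini-Hochberg adjusted p under 0.05 in edgeR's quasi-likelihood test, adjusted over all genes tested. Thus 2 of the 10 subunit genes were called higher and 0 lower, where 3.6% of all 15845 genes tested were called, 2.56% higher and 1.04% lower. At an unadjusted p under 0.05, 6 were higher and 0 lower, where 9.29% of all genes were higher and 6.93% lower. All 10 fitted log2 fold changes lay above 0, with a median of 0.60 against 0.00 over all genes tested. Cacna1e and Cacna2d2 were high enough for testing through the 5xFAD libraries, with 4 of these and 1 WT library over the level of 0.561 CPM that the filter asks for, so counts over the 10 genes are a description.

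The 250 bases before the annotated starts of these called genes are shown because both genes rose; they are from RefSeq on build GRCm38.p6, where 8 of the 10 genes had an entry, written 5′ to 3′ on the gene's own strand, with GC boxes (GGGCGG on either strand, the core of an Sp1 site) in capitals. The Cacna1b window is chr2:24763153-24763402 on the minus strand, and the Cacna2d1 window is chr5:15934441-15934690 on the plus strand.
Cacna1b: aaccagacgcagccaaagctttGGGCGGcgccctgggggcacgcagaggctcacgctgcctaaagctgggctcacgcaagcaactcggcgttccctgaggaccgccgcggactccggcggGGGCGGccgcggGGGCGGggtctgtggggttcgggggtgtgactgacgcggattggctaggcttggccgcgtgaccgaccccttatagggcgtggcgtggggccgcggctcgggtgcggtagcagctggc
Cacna2d1: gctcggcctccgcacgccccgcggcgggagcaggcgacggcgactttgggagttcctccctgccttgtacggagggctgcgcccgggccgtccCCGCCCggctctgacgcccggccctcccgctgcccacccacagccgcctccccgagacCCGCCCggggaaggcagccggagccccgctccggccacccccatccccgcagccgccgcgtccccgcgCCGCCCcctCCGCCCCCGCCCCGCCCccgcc
In the window of Cacna1b, 72.0% of bases are G or C and 3 GC boxes were found. In that of Cacna2d1 the share is 82.4%, with 6 GC boxes, of which neighbours can share a base. Some windows of genes that were not called are about as rich, with 82.8% and 6 boxes at a start of Cacna1c and 79.6% and 6 boxes at one of Cacnb4. A start of Cacnb1 has 73.2% and 5 boxes, and a start of Cacnb3 has 70.4% and 3 boxes. Those windows overlap annotated exons and are not printed. The other starts of the same genes hold 0 boxes, at 51.6% and 50.4% for Cacna1c, 71.2% and 48.8% for Cacnb4 and 56.0% for both Cacnb1 and Cacnb3. The window of Cacna1e has 52.0% and 0 boxes, and that of Cacna2d2 has 74.4% and 1 box. Over 32851 promoter windows of the same length, the median share is 52.4%, and 32.7% of windows hold a GC box. The cyclic AMP response half-site (TGACG on either strand) occurs once in each of the windows of Cacna1b and Cacna2d1 and in 17.8% of all windows. A match of letters is a description, not a binding site.

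Among the pore genes, Cacna1b stood at 9.46, 11.2, 12.9 and 12.8 CPM in 5xFAD replicates 1 to 4, against 4.33, 4.65, 4.04 and 6.05 CPM in WT replicates 1 to 4. The lowest 5xFAD library lay above the highest WT library. The fitted difference was 1.29 on the log2 scale (standard error, SE, 0.17, edgeR adjusted p = 0.0030), and Cacna1b was called in all 16 alternative fits (log2 fold changes 1.20 to 1.43).

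Cacna1a had 26.7, 25.1, 23.7 and 27.5 CPM in 5xFAD libraries, against 21.3, 20.5, 21.9 and 23.0 CPM in WT libraries. The groups did not overlap, but the difference was small and did not pass (log2 fold change 0.25, SE 0.08, edgeR adjusted p = 0.145). Of the pore genes with little RNA in the ganglion, Cacna1e was read by 11 to 18 counts per 5xFAD library and by 4 to 11 counts per WT library, which is 0.910 ± 0.296 CPM in 5xFAD and 0.499 ± 0.154 CPM in WT (SD, n = 4 each). Its groups overlapped and it did not pass (0.83, SE 0.38, edgeR adjusted p = 0.311).

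Cacna1c, the L-type pore, stood at 13.1, 13.1, 19.6 and 19.9 CPM in 5xFAD libraries, against 16.4, 15.2, 20.6 and 13.1 CPM in WT libraries. The groups covered the same range, with a fitted log2 fold change of 0.02 (SE 0.19, edgeR adjusted p = 0.981). The 12 smooth muscle and pericyte markers summed to 1443, 1228, 1730 and 1516 CPM in these 5xFAD libraries and to 1407, 1241, 1845 and 1350 CPM in the WT ones, so that replicate 3 was highest in both groups, as the WT level of Cacna1c was. Their part in the level of Cacna1c was not tested.

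Cacna1h, the T-type pore, differed by replicate number and was not called by genotype. It had 7.57, 6.85, 12.3 and 12.1 CPM in 5xFAD libraries, against 6.04, 6.44, 12.7 and 9.78 CPM in WT libraries. The 5xFAD effect was 0.14 (SE 0.29, edgeR adjusted p = 0.858), whereas replicates 3 and 4 exceeded replicates 1 and 2 by 0.83 with genotype in the model (SE 0.13, edgeR adjusted p = 0.000607). Of the other 9 genes, Cacna2d1 was also called between these replicates (0.27, SE 0.08, edgeR adjusted p = 0.0268). With 2 of 10 genes called, the share was that of all genes in this test, 20.1%. What the replicate numbers stand for is not given, and this test was chosen after the data were seen.

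Of the α2δ genes, Cacna2d1 was the most abundant by far. It stood at 63.6, 54.9, 81.4 and 78.1 CPM in 5xFAD libraries, against 42.1, 41.7, 44.7 and 41.8 CPM in WT libraries. The WT libraries lay close together, and each 5xFAD library was above all of them. The log2 fold change was 0.71 (SE 0.12, edgeR adjusted p = 0.0110). Without WT replicate 1 the value was 0.71 and the edgeR adjusted p 0.0506, which ended the call.

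Cacna2d2, encoding α2δ-2, was scarce, with 18, 28, 16 and 16 counts in 5xFAD libraries against 1, 11, 7 and 5 counts in WT libraries. The groups did not overlap in CPM, at 1.12 ± 0.248 CPM in 5xFAD and 0.372 ± 0.308 CPM in WT (SD, n = 4 each). The log2 fold change of 1.65 (SE 0.51) did not pass in the fit without covariates (edgeR adjusted p = 0.132) and passed with the replicate number as a block (1.72, edgeR adjusted p = 0.0377). Because it entered the test through the 5xFAD libraries, its entry is not independent of the difference.

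None of the β genes was called. Cacnb3, the main β gene of these ganglia, had 47.3, 44.4, 47.9 and 50.3 CPM in 5xFAD libraries, against 46.7, 44.0, 48.8 and 45.1 CPM in WT libraries. The groups overlapped, with a log2 fold change of 0.05 (SE 0.07, edgeR adjusted p = 0.795).

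Cacnb4 stood at 4.11, 3.56, 5.32 and 4.89 CPM in 5xFAD libraries, against 2.07, 2.79, 1.55 and 2.77 CPM in WT libraries. Every 5xFAD library exceeded every WT library, and the log2 fold change of 0.97 (SE 0.23) did not pass by a small margin (edgeR adjusted p = 0.0505). With the replicate block it passed (0.98, edgeR adjusted p = 0.0254).

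Cacnb1, known as the β gene of skeletal muscle and also made in neurons, had 6.92, 6.28, 6.62 and 6.77 CPM in 5xFAD libraries, against 4.86, 4.29, 4.82 and 5.14 CPM in WT libraries. The groups did not overlap and the log2 fold change of 0.48 (SE 0.13) did not pass (edgeR adjusted p = 0.0889). The 12 skeletal muscle markers together stood at 4.38 to 7.19 CPM in 5xFAD and 3.87 to 6.09 CPM in WT libraries, and Tnnc2 had no count in any of them. Their part in the level of Cacnb1 was not tested.

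**Figure D1:**
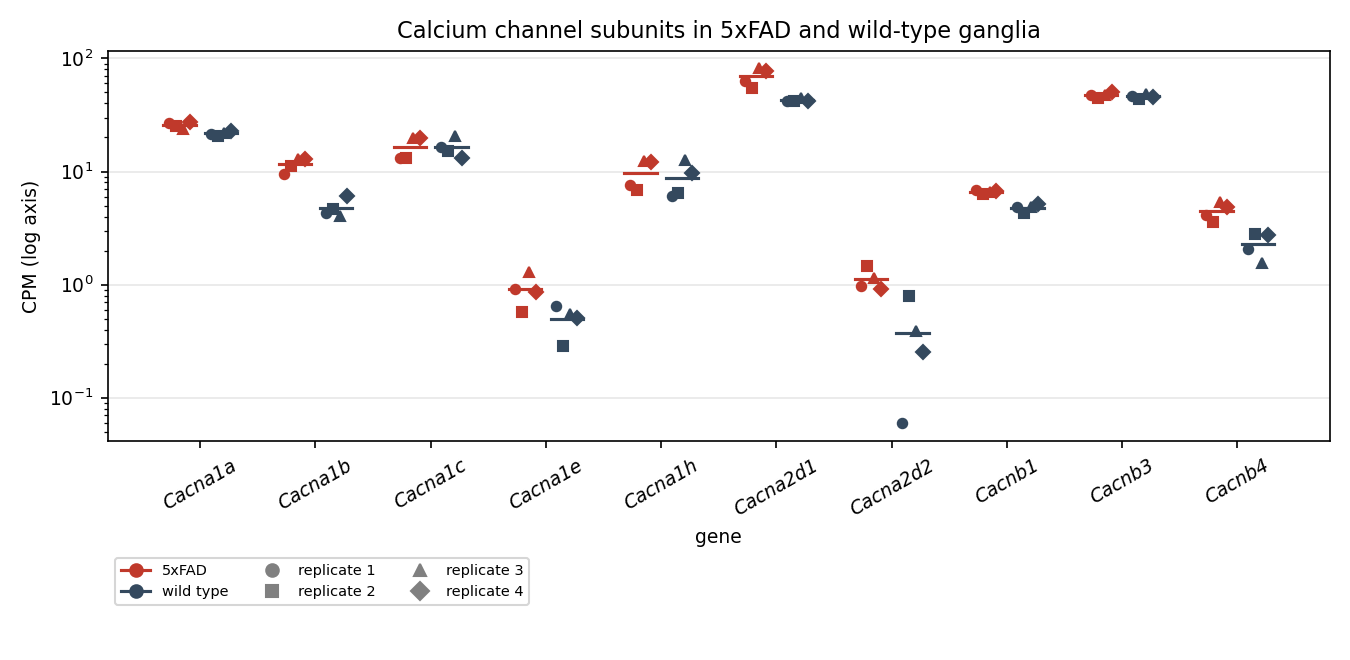
CPM (log axis) of the 10 calcium channel subunit genes in 4 5xFAD libraries (red) and 4 WT libraries (dark); each point is 1 library, its shape the replicate number, and each bar the group mean. The groups are apart in Cacna1a, Cacna1b, Cacna2d1, Cacna2d2, Cacnb1 and Cacnb4 and overlap in the other 4 genes.

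In all, the groups did not overlap in 6 of the 10 genes, each time with 5xFAD higher, where 6.44% of all genes tested parted in that direction and 4.59% in the other. One of the 6, Cacna2d2, had entered the test through the 5xFAD libraries. Within replicates 1 and 2 and within replicates 3 and 4, Cacna1b had log2 fold changes of 1.20 and 1.35, Cacna2d1 0.50 and 0.89, and both passed in each pair of replicates (edgeR adjusted p = 0.000635 and 0.00217 for Cacna1b, 0.0014 and 4.4e-05 for Cacna2d1). Cacnb4 had 0.66 and 1.23 and passed in replicates 3 and 4 (edgeR adjusted p = 0.0413). The 5xFAD effect itself was not called as different between the replicate pairs in any of the 10 genes, where 1.19% of all genes were. The nearest was Cacna2d1, with a difference of 0.38 (SE 0.12, unadjusted p = 0.00686, edgeR adjusted p = 0.223).

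Compared per length, as CPM per kb of exon, Cacnb3 was the highest of the 10 genes, with 11.8 ± 0.602 in 5xFAD and 11.5 ± 0.522 in WT (SD, n = 4 each). Next came Cacna2d1 (5.60 in 5xFAD and 3.43 in WT), Cacna1a (2.25 and 1.90 in the same order of groups) and Cacnb1 (1.47 in 5xFAD and 1.05 in WT). In these steps of the order no library of a gene overlapped one of the next, with 1 exception, Cacnb1 and Cacna1h in WT.

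The order of the pores differed between the groups. In 5xFAD libraries Cacna1b was the second pore after Cacna1a, at 1.17 ± 0.164 CPM per kb, ahead of Cacna1h at 0.993 and Cacna1c at 0.775, although neighbours among these overlapped. In WT libraries Cacna1b, at 0.479 ± 0.0895 CPM per kb, stood below both Cacna1h (0.896) and Cacna1c (0.770) in every library. Cacnb4, Cacna2d2 and Cacna1e closed the order in both groups.

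As a share of the per-length level of the 5 pore genes, Cacna1b made up 22.3 ± 1.71% in 5xFAD and 11.9 ± 2.32% in WT (SD, n = 4 each). The ranges were 20.2% to 24.1% in 5xFAD and 8.80% to 14.3% in WT, and so did not overlap. Cacna1a made up 43.6 ± 5.78% in 5xFAD and 47.0 ± 3.92% in WT, and its ranges overlapped. Among the β genes of the set, Cacnb3 held 85.8% in 5xFAD and 89.8% in WT. Among the α2δ genes of the set, Cacna2d1 held 97.4% in 5xFAD and 98.7% in WT. All these shares leave out subunit genes outside the set, such as Cacna1d, Cacnb2 and Cacna2d3. Of these, Cacna2d3 had 2.56 CPM in 5xFAD and 1.66 CPM in WT, more than Cacna2d2 with 1.12 CPM in 5xFAD and 0.372 CPM in WT.

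**Figure D2:**
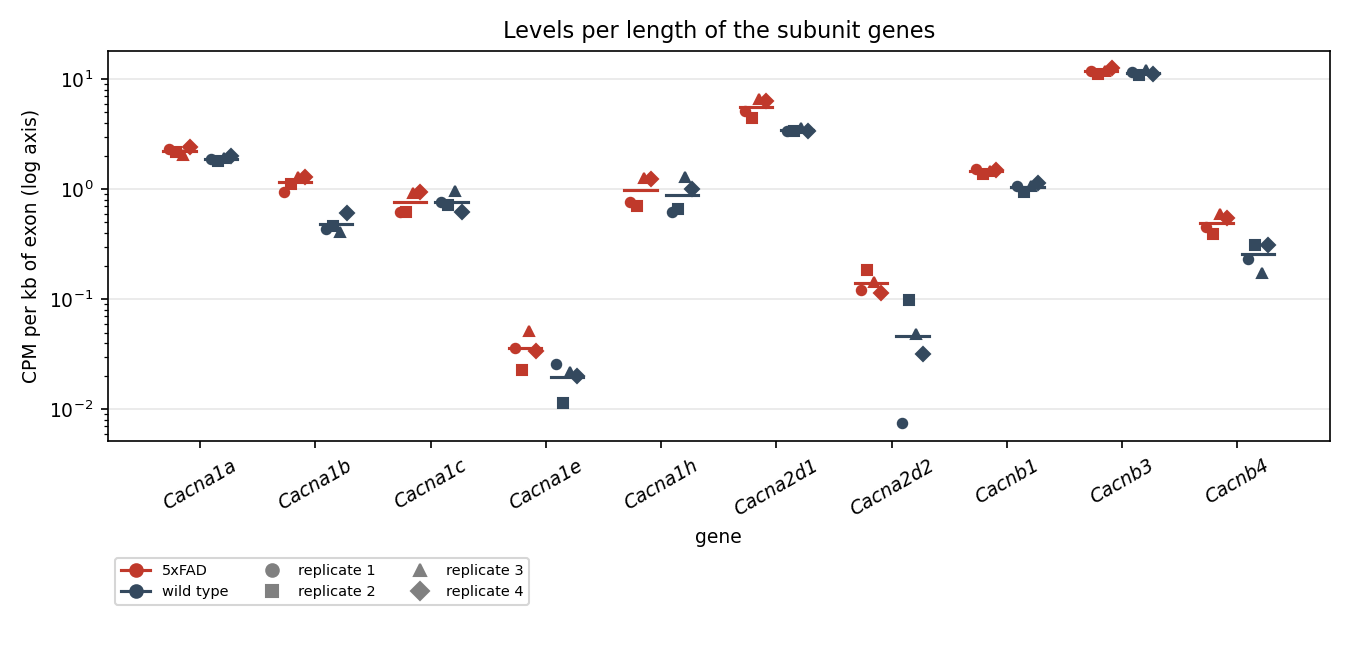
CPM per kb of exon (log axis) of the 10 subunit genes in 4 5xFAD libraries (red) and 4 WT libraries (dark), with group means as bars. Cacnb3 is highest in both groups, and Cacna1b lies at 1.17 in 5xFAD, against 0.479 in WT.

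Markers of neurons mostly lay higher in 5xFAD, while lists of other cells went in different directions. Of the 17 pan-neuronal genes, 13 were called higher in 5xFAD and 0 lower, and their summed level was 1326 to 1470 CPM in 5xFAD, against 698 to 908 CPM in WT. Nociceptor genes were called higher in 5 of 9 tested, such as the sodium channel gene Scn10a with 36.0 ± 3.34 CPM in 5xFAD and 14.1 ± 1.64 CPM in WT (SD, n = 4 each). Of 9 tested markers of large myelinated neurons, 2 were called higher (Nefh and Cntnap2) and 8 lay above 0. Their summed level was nonetheless 940 to 3874 CPM in 5xFAD and 4021 to 5892 CPM in WT, since it is mostly Spp1, the osteopontin gene, with 1660 CPM in 5xFAD and 4793 CPM in WT (log2 fold change -1.51, SE 0.64, edgeR adjusted p = 0.304). Genes of Schwann cell myelin summed to 3844 to 5464 CPM in 5xFAD and 2002 to 3908 CPM in WT, with 0 of 11 called. Slc17a8, a glutamate transporter gene of C-fibre touch neurons, was called lower (-1.64, SE 0.21, edgeR adjusted p = 0.00234), as was Gja1, a gap junction gene of satellite glia (-0.59, SE 0.11, edgeR adjusted p = 0.0155). Most of both lists went the other way, with 2 of 3 tested C-fibre touch markers and 7 of 10 satellite glia markers above 0. Satellite glia markers summed to 2826 to 3378 CPM in 5xFAD and 2056 to 2871 CPM in WT. All 9 endothelial and all 8 macrophage markers tested had fitted values below 0, with 0 called in either list. In bulk ganglion RNA, more neurons or neuronal material and more RNA per neuron cannot be told apart. The part of these markers in the subunit results was not tested beyond the ratios given next.

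Set against the summed pan-neuronal counts of the same library, the subunit genes differed among themselves, given here with no test. Cacnb3 had 33.9 ± 0.525 counts per 1000 pan-neuronal counts in 5xFAD and 61.9 ± 9.19 in WT (SD, n = 4 each). Cacna1a had 18.4 ± 0.901 in 5xFAD and 29.0 ± 4.34 in WT, and Cacna1c 11.7 ± 2.50 in 5xFAD and 21.9 ± 5.53 in WT. In these 3 genes every 5xFAD library lay below every WT library, as it did in 76.3% of all genes tested, while 0.492% of all genes lay higher in every 5xFAD library. A gene with equal CPM in both groups is lower in this ratio because the marker sum was higher in 5xFAD.

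For the other 7 the groups overlapped. Cacna1b had 6.70 to 9.33 counts per 1000 pan-neuronal counts in 5xFAD and 5.13 to 8.48 in WT, and Cacna2d1 had 41.4 to 58.7 in 5xFAD and 46.0 to 62.8 in WT. The sum is led by Tubb3 with 30.5% of its counts and Uchl1 with 17.4%, so abundant transcripts weigh most in the ratio.

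**Figure D3:**
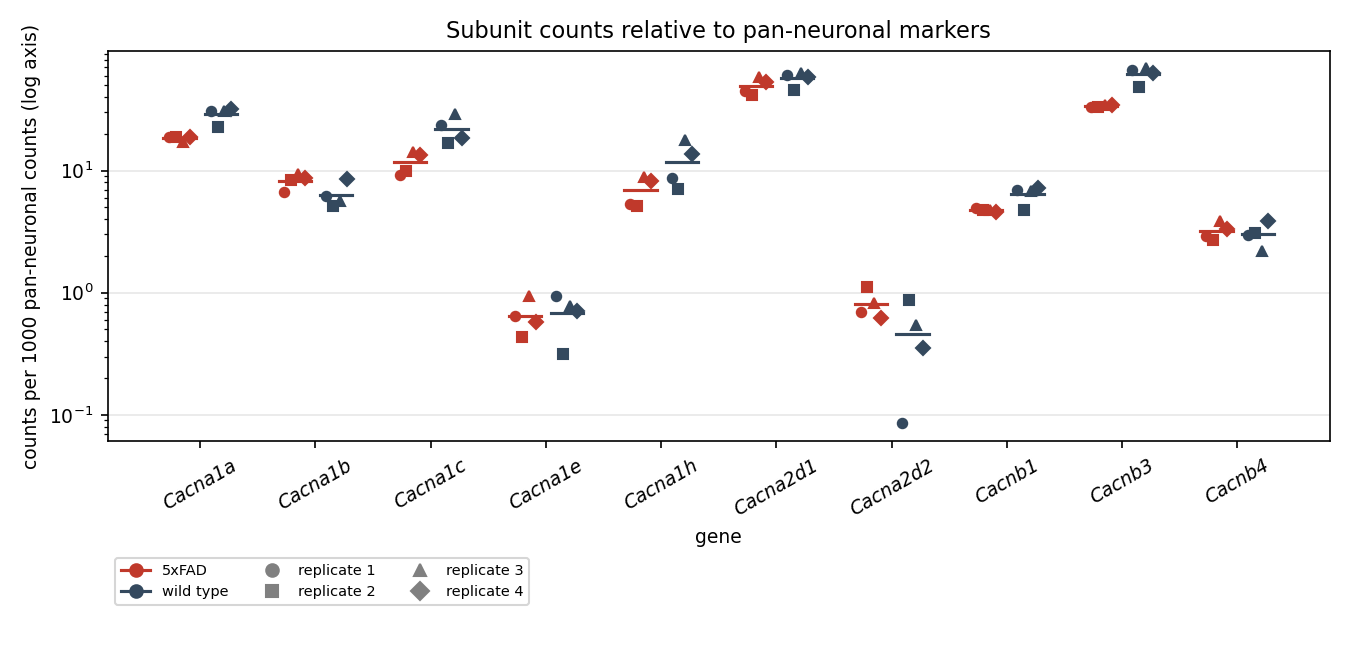
Counts of each subunit gene per 1000 summed counts of 17 pan-neuronal markers (log axis) in 4 5xFAD libraries (red) and 4 WT libraries (dark), with group means as bars. Cacnb3, Cacna1a and Cacna1c are lower in every 5xFAD library, while the ranges of Cacna1b and Cacna2d1 overlap between the groups.

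The partners of these channels were followed in lists chosen by function. For comparison with each list, 2.56% of all genes tested were called higher in 5xFAD and 1.04% lower. Of 20 tested genes of presynaptic release, 12 were called higher in 5xFAD and 0 lower, with a median log2 fold change of 0.87. Of this list, Syt1 and Snap25 are also among the pan-neuronal markers. Syn1, which tethers synaptic vesicles, had 28.5 ± 1.38 CPM in 5xFAD and 13.6 ± 1.71 CPM in WT (SD, n = 4 each), a log2 fold change of 1.07 (SE 0.10, edgeR adjusted p = 0.000665). Syt1, the calcium sensor of release, rose by 1.36 (SE 0.13), and Erc2, a scaffold of the active zone, by 1.23 (SE 0.13).

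Of 16 tested channel regulators, 3 were called higher and 0 lower, with a median of 0.10. They were Gnao1, the G protein through which opioid and other receptors inhibit N-type channels (0.50, SE 0.09), Stac, an adaptor protein that binds L-type channels (0.76, SE 0.15), and Dpysl2, encoding CRMP2, which binds N-type channels (0.21, SE 0.05). Of 20 calcium-dependent kinases and targets 2 were called higher and 0 lower, with a median of 0.12. Camk2a, a calmodulin-dependent kinase of synapses, rose by 1.37 (SE 0.18) and Kcnma1, the calcium-activated BK potassium channel, by 1.11 (SE 0.20).

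Of 20 calcium store, pump and exchanger genes, 1 was called higher, the plasma membrane pump gene Atp2b2 (1.38, SE 0.32), and 0 lower, with a median of -0.03. With 2.56% of all genes called higher, 1 call among 20 is not read as a result about the list. Of the other calcium channel subunit genes, 7 were tested and 0 were called, with a median of 0.16. The smallest p there was that of Cacna2d3, the α2δ-3 gene, with 2.56 ± 0.475 CPM in 5xFAD and 1.66 ± 0.845 CPM in WT (SD, n = 4 each, log2 fold change 0.66, SE 0.33, edgeR adjusted p = 0.362).

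The 5 genes whose centred log2(CPM + 1) profile over the 8 libraries lay nearest to the mean profile of the subunit genes were Agtpbp1, Lynx1, Tnfrsf21, Dmxl2 and Gabbr1. Their mean absolute distances on the log2 scale were 0.0314, 0.0424, 0.0556, 0.0560 and 0.0630, against a median of 0.243 over 11717 candidates. Agtpbp1 encodes a tubulin-modifying carboxypeptidase and Gabbr1 a subunit of the GABA-B receptor, which averaged 48.4 CPM in 5xFAD and 35.8 CPM in WT.

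In the p75 table no subunit gene passed the test. Of the 10 genes, 7 had enough counts to be tested and 0 were called in edgeR, where 0% of 11890 genes were. DESeq2 also called 0 of the 7. All 7 fitted log2 fold changes lay below 0 with a median of -0.80, against 0.02 over all genes tested. At an unadjusted p under 0.05 there was 1 gene, Cacnb1, lower in the knockout, where 0.723% of all genes were lower and 0.454% higher at that level. Cacnb1 had entered the test through the floxed libraries alone, of which 3 reached the 1.90 CPM that the filter asks for, against 0 knockout libraries, so neither its test nor its lack of overlap is independent of the difference. Cacna1c reached that level in 3 floxed libraries and 1 knockout library. Cacna1b and Cacnb4 each did so in 2 floxed libraries and 1 knockout library. The direction and median over the 7 genes are therefore a description. This table holds fewer counts and far more spread, with a common dispersion of 0.3 against 0.023 in the 5xFAD table, so the fits give wide errors.

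**Figure D4:**
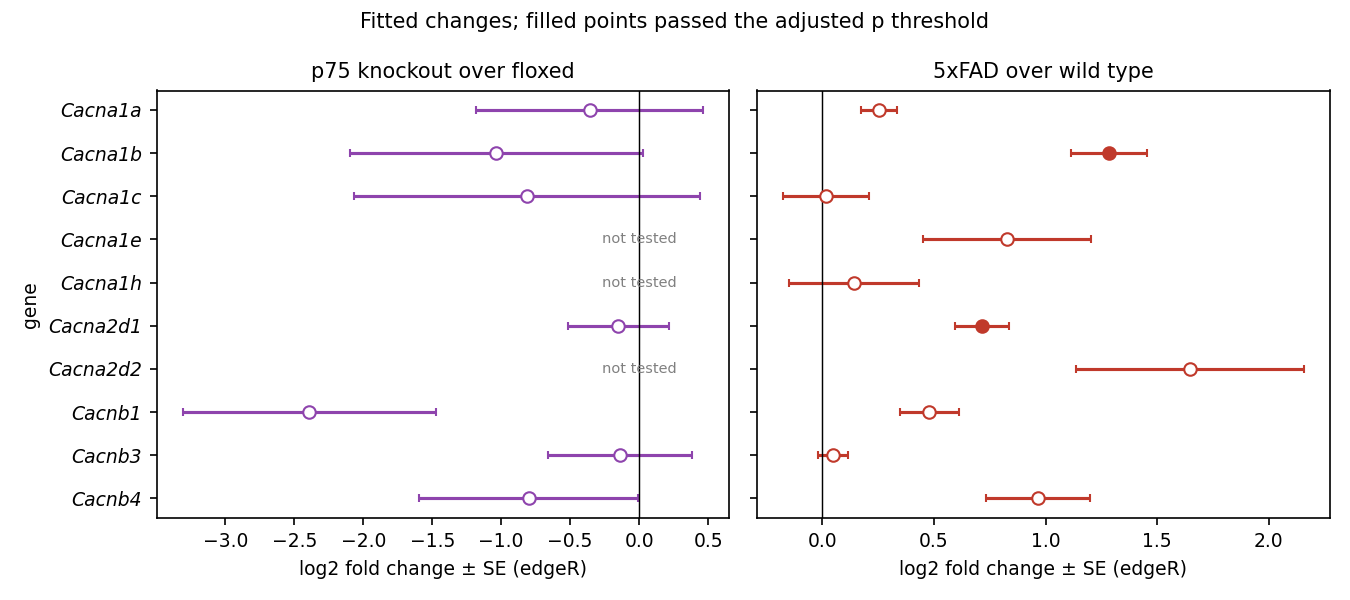
Log2 fold changes with SE from edgeR for the 10 subunit genes, in p75 knockout over floxed libraries (left, 3 against 3) and 5xFAD over WT libraries (right, 4 against 4); filled points passed the threshold of adjusted p under 0.05. Only Cacna1b and Cacna2d1 in the 5xFAD comparison are filled, and 3 genes of the p75 table were not tested.

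Cacnb1 stood at 1.04, 1.48 and 0.168 CPM in knockout replicates 1, 2 and 3, against 2.74, 4.80 and 6.94 CPM in floxed replicates 1, 2 and 3. These levels rest on 5, 7 and 1 counts in the knockout libraries, against 14, 26 and 42 counts in the floxed ones. It was the 1 tested gene of the set whose groups did not overlap, which 3.92% of all genes tested did with the knockout lower and 2.18% with it higher. The log2 fold change was -2.39 (SE 0.92, unadjusted p = 0.0312, edgeR adjusted p = 0.9999).

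The other β genes overlapped between the groups. Cacnb3 had 13.8, 16.1 and 7.38 CPM in the knockout libraries, against 20.4, 15.5 and 7.10 CPM in the floxed ones (log2 fold change -0.14, SE 0.52). Cacnb4 had 1.04, 2.54 and 1.17 CPM in the knockout libraries, against 2.94, 1.66 and 3.97 CPM in the floxed ones (-0.80, SE 0.80).

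Cacna1a and Cacna1c went with replicate number in opposite ways. Cacna1a had 25.8, 51.8 and 5.03 CPM in knockout replicates 1, 2 and 3, against 35.7, 64.2 and 11.9 CPM in the floxed ones. Replicate 3 was thus lowest in both groups, and each knockout library was below the floxed library of its number. The labels do not pair libraries of equal number, so this is a description. Between replicate 3 and the others Cacna1a differed by -2.37 (SE 0.46, edgeR adjusted p = 0.00346), while the knockout effect was -0.36 (SE 0.82). Of the 7 tested subunit genes, only Cacna1a and Cacna1c were called for replicate 3. That share is close to the 30.5% of all genes called there, and the split was chosen after the data were seen.

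Cacna1c had 0.208, 1.48 and 15.8 CPM in the knockout libraries, against 4.51, 6.46 and 21.2 CPM in the floxed ones. These levels rest on 1, 7 and 94 counts in the knockout libraries, against 23, 35 and 128 counts in the floxed ones. Again each knockout library was below the floxed library of its number, a match that the labels do not give. Replicate 3 was the highest of both groups, by 3.11 over the others (SE 0.68, edgeR adjusted p = 0.0068). The knockout effect was -0.81 (SE 1.25), and with the replicate block -1.78 (SE 0.75), neither of which passed (edgeR adjusted p = 0.9999 and 1). Smooth muscle and pericyte markers summed to 437 to 1521 CPM in replicates 1 and 2 and to 775 to 979 CPM in replicate 3. Endothelial markers summed to 117 to 616 CPM in replicates 1 and 2 and to 782 to 817 CPM in replicate 3. The part of both lists in the level of Cacna1c was not tested.

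Cacna2d1 was the most even of the genes, with 21.3, 26.2 and 36.4 CPM in the knockout libraries, against 39.2, 33.9 and 24.9 CPM in the floxed ones. The knockout library was lower in replicates 1 and 2 and higher in replicate 3, and the fitted value was -0.15 (SE 0.37). Cacna1b rested on 2, 9 and 4 counts in the knockout libraries, against 16, 17 and 2 counts in the floxed ones (-1.03, SE 1.06). Its value was -1.86 without knockout replicate 2 and -0.67 without knockout replicate 1.

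Of the 3 genes with too few counts for the test, Cacna2d2 had 1, 1 and 0 counts in knockout replicates 1, 2 and 3, against 54, 19 and 0 counts in floxed replicates 1, 2 and 3. Cacna1h had 3, 5 and 1 counts in the knockout libraries, against 24, 17 and 0 counts in the floxed ones. In both genes replicates 1 and 2 were lower in the knockout, while floxed replicate 3 held no count. Cacna1e had 0 counts in each knockout library, against 0, 3 and 3 counts in the floxed ones, which is at the limit of detection: a count of 0 allows up to 3 counts, or 0.503 to 0.634 CPM in the knockout libraries.

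**Figure D5:**
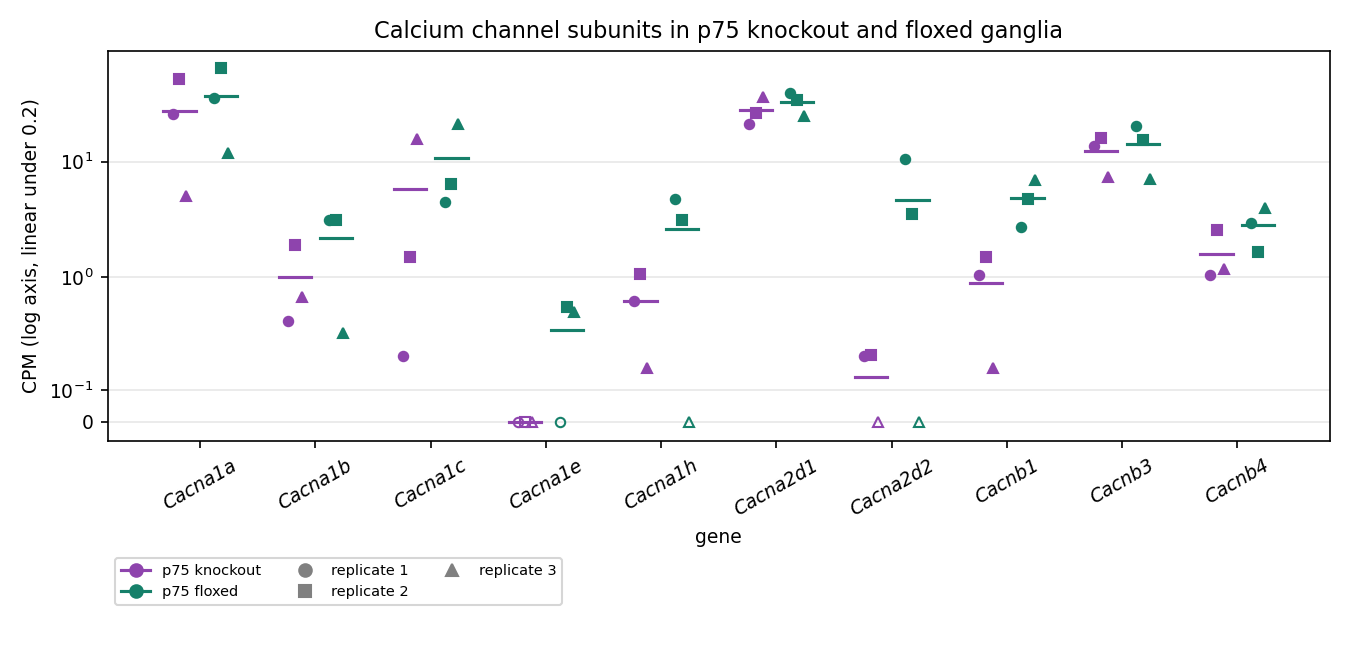
CPM (log axis, linear under 0.2, open points at 0) of the 10 subunit genes in 3 p75 knockout libraries (purple) and 3 floxed libraries (green); each point is 1 library, its shape the replicate number, and bars are group means. Replicate 3 is low in Cacna1a and high in Cacna1c in both groups, and the groups are apart in Cacnb1, at 0.168 to 1.48 CPM in the knockout and 2.74 to 6.94 CPM in the floxed libraries.

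Pan-neuronal markers summed to 317, 1624 and 1328 CPM in knockout replicates 1, 2 and 3, against 1269, 833 and 900 CPM in the floxed ones, with 0 of 17 called. The knockout library of replicate 1 was thus low in neuronal RNA. In it all subunit genes other than Cacna1c and Cacna1e had their highest ratios to these markers among the knockouts. For Cacna1a, Cacnb3 and Cacna2d1 they were 81.5, 43.4 and 67.0 counts per 1000 pan-neuronal counts. Cacna1c had its lowest there, at 0.657, and Cacna1e had no count in any knockout library. Relative to these markers the groups overlapped in all 10 genes, where 0.547% of all genes tested were higher and 0.404% lower in every knockout library. Nociceptor markers summed to 59.2 to 121 CPM in the knockout and 100 to 314 CPM in the floxed libraries, with 0 of 6 called, and their part in the subunit levels was not tested. Skeletal muscle markers, which bear on Cacnb1, summed to 3.86 to 12.5 CPM in the knockout and 7.45 to 10.2 CPM in the floxed libraries, with Ckm, Myh1 and Tnni2 at 0 in all of them.

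None of the partner lists held a called gene in the p75 table. The median log2 fold change was 0.02 over 18 release genes, 0.13 over 13 channel regulators, 0.05 over 14 store and pump genes, -0.13 over 16 kinases and targets and 0.55 over 2 other channel subunits, against 0.02 over all genes tested. Rrad, a small GTPase that inhibits L-type channels, had 4.07 ± 0.700 CPM in the knockout and 1.26 ± 0.947 CPM in the floxed libraries (SD, n = 3 each), a log2 fold change of 1.78 (SE 0.90) that did not pass (edgeR adjusted p = 0.9999). The values of the smallest p in the other lists were 1.14 (SE 1.07) for Erc2, -0.80 (SE 0.53) for the calcium pump gene Atp2b4, 1.92 (SE 1.14) for the kinase gene Camk2b and 0.88 (SE 1.28) for Cacng4. The genes nearest in profile to the mean of the 7 tested subunit genes over the 6 libraries were Lpcat3, Rnf125, Pcdhga7, 1500004A13Rik and Flt3l, at distances of 0.0776 to 0.137 on the log2 scale, against a median of 0.547 over 10227 candidates.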

How the data were processed

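RNA sequencing counts of 14 libraries were analysed. GRCm39 is the build named, per the submitters' processing notes. No source used here names the aligner or counter. Both deposited tables hold counts, whole numbers per gene that the authors did not normalize. In the p75 table the largest count was 65469, none reached 65536 and counts rose little with gene length. How it was counted is not stated: its counts may be of collapsed molecular tags rather than reads, in which case a CPM there is a share of tags. Levels were therefore compared per length in the 5xFAD table only, with exon lengths of GENCODE M21, an annotation of an older build. Knockout columns were matched to samples by number and by elimination.

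CPM are counts divided by the total of the library, without further scaling. Each table was fitted on its own in R 4.3.3 with edgeR 4.0.16 (filterByExpr, TMM, robust glmQLFit and glmQLFTest), without covariates, and fold changes are therefore on the TMM scale. SE was derived from the F statistic, as |log2 fold change| over its square root. A symbol shared by several Ensembl genes was given to the one with most counts. Code was tested on simulated data. Alternatives were DESeq2 1.42.0 (test and size factors), other filters, the replicate block, the split by replicate number, and leaving out each library.

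Deviations of libraries of equal number correlated at 0.159, 0.393, 0.493 and 0.126 in the 5xFAD table and at 0.363, 0.323 and 0.603 in the p75 table, each over 0.1. Some libraries of unequal number correlated more: 5xFAD replicate 1 with WT replicate 2 (0.427) and 5xFAD replicate 4 with WT replicate 3 (0.464). The values were lower for 5xFAD replicate 2 with WT replicate 1 (0.145) and 5xFAD replicate 3 with WT replicate 4 (0.0355). In the p75 table, knockout replicate 1 had 0.468 with floxed replicate 2. Equal numbers thus do not single out matched libraries. Blocked values are given where they change a call, and the block comes from the data, not the labels. In the ratio to neuronal markers the counts are unscaled. Genes named were the 10 subunits, the 3 called genes of smallest p in each partner list or, with none called, the 1 of smallest p, and the 5 genes nearest in profile with a mean of at least 5 CPM. Members, lists and the split by replicate number were chosen with earlier results of these data known. Counting limits cover counting error only.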

Additional observations from a re-analysis of the deposited data

Results flagged for a closer look

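In WT ganglia Cacna2d1 stood at 44.7 CPM in replicate 3, apart from the other 3 WT libraries, which lay between 41.7 and 42.1 CPM. The gap was 0.888 of the range of the group, which is over Dixon's critical value for 4 samples. All 4 5xFAD libraries, from 54.9 to 81.4 CPM, lay above it. Chance flags about 1 in 20 groups, and 20 groups of 4 libraries were examined.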

How the results depend on the processing

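In the 5xFAD comparison the number of subunit genes called was 2, and it was 4 with DESeq2 (Cacna1b, Cacna2d1, Cacnb1 and Cacnb4), 4 with the replicate block (Cacna1b, Cacna2d1, Cacna2d2 and Cacnb4) and 6 with the replicate pairs as a term (these and Cacna1a and Cacnb1, with adjusted p of 0.0484 and 0.0422). Leaving out 1 library gave 1 to 2. Over all genes the count of 570 became 1028 with DESeq2, 1622 with the block, 1866 with the pairs as a term and 2053 within replicates 1 and 2; leaving out 1 library gave 237 to 516, with 237 without WT replicate 1, 283 without 5xFAD replicate 4, 323 without 5xFAD replicate 1 and 376 without 5xFAD replicate 2. Of these calls 71.2% were higher in the fit without covariates and 49.7% within replicates 1 and 2. In the p75 comparison 0 subunit genes were called in any alternative. Over all genes the count of 0 became 6 with DESeq2, 6 within replicates 1 and 2, 1 with the block and 1 with replicate 3 as a term, and stayed 0 without each library. The sign turned only in values that were not called. For Cacna1c in 5xFAD it was -0.0047 with the pairs as a term, -0.27 within replicates 1 and 2, and -0.095 to 0.15 without 1 library; Cacna1h ranged from -0.0019 to 0.38 without 1 library. In the p75 table the ranges without 1 library were -1.21 to 0.28 for Cacna1a, -3.62 to 0.23 for Cacna1c, -0.41 to 0.026 for Cacna2d1 and -0.44 to 0.19 for Cacnb3. Cacna1b ranged there from -1.86 to -0.67, and Cacnb4 from -1.31 to -0.43, against -0.80 with all libraries. The cause was not tested. Other log2 fold changes of tested subunit genes kept their sign. With a mean of at least 5 CPM, Cacna1e, Cacna2d2 and Cacnb4 could not be tested in 5xFAD. With the replicate block no other call on a subunit gene changed. Low counts limit Cacna1e and Cacna2d2 in both tables and Cacna1b, Cacna1h, Cacnb1 and Cacnb4 in the p75 table. They also limit Cacna1c in knockout replicates 1 and 2.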
